A study of Mus musculus with 24 samples.

Results

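The first step of optic vesicle (OV) organoid formation, from mouse embryonic stem cells (mESCs) on day 0 to aggregates on day 1, was followed in 6 of the 24 RNA-seq libraries, 3 of each day. Every gene of the table was kept for this step, and 21005 of the 49705 entries passed the filter on low values (at least 10 normalized counts in at least 3 of the 24 libraries) and were tested. The cells were the Rx-GFP K/I EB5 line, mESCs with GFP knocked into Rax, so that all libraries came from 1 line and differences between lines were not sampled. Day 0 libraries came from mESCs labelled with no treatment, kept without feeders on gelatin with LIF. Day 1 libraries came from cells labelled as under OV organoid differentiation. Each of these samples pooled aggregates grown in low-adhesion wells. The sample labels give GMEM with KOSR as the differentiation medium, and the study's methods a growth factor-free defined medium. Matrigel was added on day 1, and the sources used here do not say whether before or after sampling. Live cells of both days were taken with no selection on GFP. The p-values rest on a spread between triplicate cultures of the line that was estimated over all 8 groups of the series. The change of medium, the removal of LIF and the loss of attachment happened together, so that their effects cannot be told apart, and a shift in the share of a cell type cannot be told apart from a shift in its RNA.

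Mouse ESCs are held in a naive state by LIF, a cytokine that acts through the receptor pair Lifr and Il6st and the kinase-activated factor Stat3. Stat3 enters the nucleus, binds paired TTC and GAA half-sites and turns on naive factors such as Klf4 and Gbx2 as well as Socs3, which shuts the pathway off again. Without LIF, and with FGF signalling through ERK, the cells pass into a formative state, in which general factors such as Pou5f1 and Sox2 stay on while Otx2, Fgf5, Pou3f1 and the de novo DNA methyltransferases come up. Aggregation in low-adhesion wells is the start of neural differentiation in serum-free culture, and eye-field genes such as Rax come on later.

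The Stat motif (TTCNNNGAA, the same on both strands) was looked for in RefSeq promoter windows of build GRCm38.p6 (mm10), 250 bases before to 50 bases after a start site. The windows of Socs3 and Icam1 are shown because both genes belong to the LIF and STAT3 list and had every day 1 value below every day 0 value. That of Acta1 is shown because this actin gene set 1 of the day 0 libraries apart, and its capitals mark a CArG box, the site of the serum response factor. Capitals mark the Stat motif in the other windows, which are written 5′ to 3′ on the strand of the gene. They lie at chr11:117969317-117969616 on the minus strand (Socs3), chr9:21015690-21015989 on the plus strand (Icam1) and chr8:123894726-123895025 on the minus strand (Acta1).
Socs3: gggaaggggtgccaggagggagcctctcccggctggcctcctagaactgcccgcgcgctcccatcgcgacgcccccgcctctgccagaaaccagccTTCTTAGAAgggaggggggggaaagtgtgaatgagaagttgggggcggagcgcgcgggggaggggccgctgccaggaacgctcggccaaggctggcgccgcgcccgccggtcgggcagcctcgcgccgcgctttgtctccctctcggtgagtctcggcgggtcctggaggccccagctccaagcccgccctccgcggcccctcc
Icam1: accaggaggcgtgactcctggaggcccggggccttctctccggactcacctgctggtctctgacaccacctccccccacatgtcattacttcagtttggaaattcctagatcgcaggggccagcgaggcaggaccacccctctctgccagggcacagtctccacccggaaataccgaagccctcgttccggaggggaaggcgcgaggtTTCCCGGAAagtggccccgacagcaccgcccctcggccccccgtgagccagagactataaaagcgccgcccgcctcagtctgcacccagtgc
Acta1: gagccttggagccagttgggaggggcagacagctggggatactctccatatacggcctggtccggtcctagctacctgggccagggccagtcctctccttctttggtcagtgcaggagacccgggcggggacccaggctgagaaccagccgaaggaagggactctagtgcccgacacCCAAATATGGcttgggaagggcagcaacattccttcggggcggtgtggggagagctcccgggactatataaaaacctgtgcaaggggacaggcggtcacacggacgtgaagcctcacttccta
The motifs began at position -154 from the start site in Socs3, at -42 in Icam1 and at -73 in Acta1. The Stat motif was in 8.2% of the 13997 tested genes with a window and in 8.3% of all 32851 windows. It was in 4 of 54 genes with a window that were called lower on day 1 (7.41%: Socs3, Srms, Tgm1 and Zeb2) and in 4 of 54 called higher (7.41%: Elfn1, Igtp, Irgm2 and Npas1). Both shares were near that of all tested genes. Of the LIF and STAT3 list, 4 of 19 genes with a window held it (21.1%: Cish, Icam1, Ifitm3 and Socs3). Cish (-0.29) and Ifitm3 (-0.21) overlapped between the days and were not called. A CArG box was in 1.66% of the tested genes with a window and in 5 of 26 genes of the list of serum response factor (SRF) and YAP targets and cytoskeleton genes (19.2%: Acta1, Cnn2, Myl9, Srf and Vcl). None of these 5 genes was called with or without day 0 replicate 1. The box was in 0 of 54 genes with a window called lower and in 0 of 54 called higher. A match is a run of letters, and binding was not measured.

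The labelled cell type was borne out by its markers. Pou5f1, the core pluripotency factor, was at 38139, 36593 and 35361 normalized counts in day 0 replicates 1, 2 and 3, and at 34047, 34400 and 36653 on day 1. Sox2 lay between 11645 and 15854 in all 6 libraries, with a log2-fold-change of -0.09 ± 0.14 (standard error) that turned to 0.01 without day 0 replicate 2. Markers of other lineages were present too. The 15 mesendoderm markers summed to between 1254 and 2727 normalized counts per library, the 15 trophoblast markers to between 5282 and 8890, the 15 fibroblast markers to between 1771 and 2908, and the 20 anterior neural and eye field genes to between 1486 and 3411. The 18 primitive endoderm markers summed to between 52517 and 76931. A large part of this sum came from matrix genes, such as Sparc (22687 in day 0 replicate 1) and Col4a1 (17953 there). The endoderm factor Gata6 was at 646 to 868 on day 0 and at 439 to 494 on day 1. Their part in the results was not tested.

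Library totals lay between 44425044 and 51587535 normalized counts, and 1 library stood apart. Day 0 replicate 1 had rank correlations of 0.953 and 0.954 with the other day 0 libraries, which correlated with each other at 0.988. It was also no closer to day 1 (0.951 to 0.953). Of 12818 genes with a day 0 mean of at least 100, 23% were more than 2-fold away in it from the mean of the other day 0 libraries. The share was 5.32% and 4.46% for replicates 2 and 3, whose comparison includes replicate 1. In a day 1 library it was at most 1.48% (over 12624 genes with such a mean on day 1, against the other day 1 libraries). Mitochondrial transcripts made up 6.04% of the total of day 0 replicate 1, against 2.4% and 2.28% in the other day 0 libraries and 2.66% to 4.42% on day 1. Ribosomal protein genes made up 10.1%, against 5.37%, 5.92% and 6.47% to 7.27%. It listed 27 entries at 0 that had at least 100 in both other day 0 libraries, 20 of them pseudogenes. The departure followed the length of the transcript. Over protein-coding genes whose longest GENCODE M21 transcript was under 1 kb, it was above the other day 0 libraries by a median of 0.82 on the log2 scale, and over those of more than 8 kb its median was -0.70. Within day 1 these medians stayed between -0.11 and 0.08. Across 11843 genes, which are not independent of each other, Spearman's rho of its departure with length was -0.445, whereas the difference between day 0 replicates 2 and 3 had a rho of 0.00356. Counts of called genes and list medians are therefore given with and without this library, and the part of transcript length in the results was not tested.

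**Figure D1:**
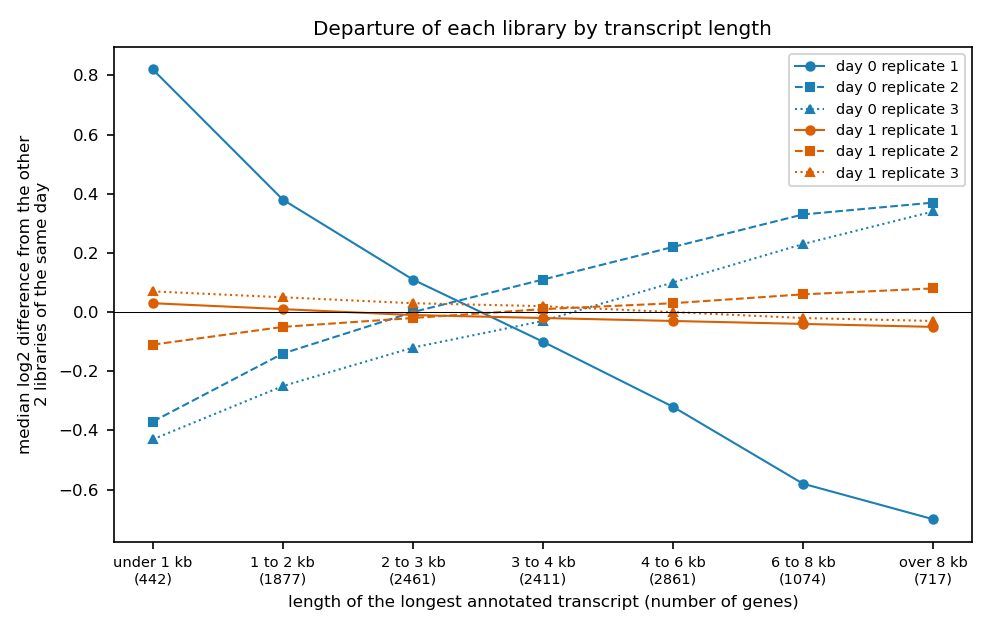
Median log2 difference of each day 0 and day 1 library from the other 2 libraries of its day (vertical axis) in classes of transcript length (horizontal axis, genes per class in brackets). Day 0 replicate 1 runs from 0.82 under 1 kb to -0.70 over 8 kb. The other day 0 libraries mirror it because it is part of their comparison, and the day 1 libraries lie near 0.

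The question of the step was which genes respond within the first day of aggregation. With all libraries, 72 genes were higher on day 1 (0.343% of those tested) and 83 were lower (0.395%), together 155 genes (0.738%). Calls were made in limma with Benjamini-Hochberg adjustment (adjusted p under 0.001 and a log2-fold-change beyond 1.5, both thresholds of the study). The study shrank its DESeq2 fold changes before applying the fold threshold, which was not done here. Without day 0 replicate 1, 78 were higher (0.371%) and 73 lower (0.348%). Both fits shared 103 genes, 49 higher (0.233%) and 54 lower (0.257%), and no gene was called in opposite directions. The 103 shared genes were 66.5% of the first set and 68.2% of the second. Of the genes called with all libraries, 69 of the 72 and 79 of the 83 were protein coding. For all 155, the 3 values of each day did not overlap, as was the case for 9.86% of tested genes upward and 10.4% downward. The median log2-fold-change of all tested genes was 0.00 with that library and -0.01 without it. Leaving out 1 library at a time gave 46 to 95 higher and 49 to 86 lower, with 46 and 59 without day 1 replicate 1 and 48 and 49 without day 1 replicate 3. A limma treat test against the fold threshold gave 0 and 0, with 114 genes at an unadjusted p under 0.05. The calls and the standard errors rested on the spread shared with the other 18 libraries. In a fit of the 6 libraries alone, 1 gene was called higher, the ribosomal pseudogene Rpl15-ps3, and 0 lower by limma, with 2501 genes at an unadjusted p under 0.05 against 4720 in the fit of all libraries.

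**Figure D2:**
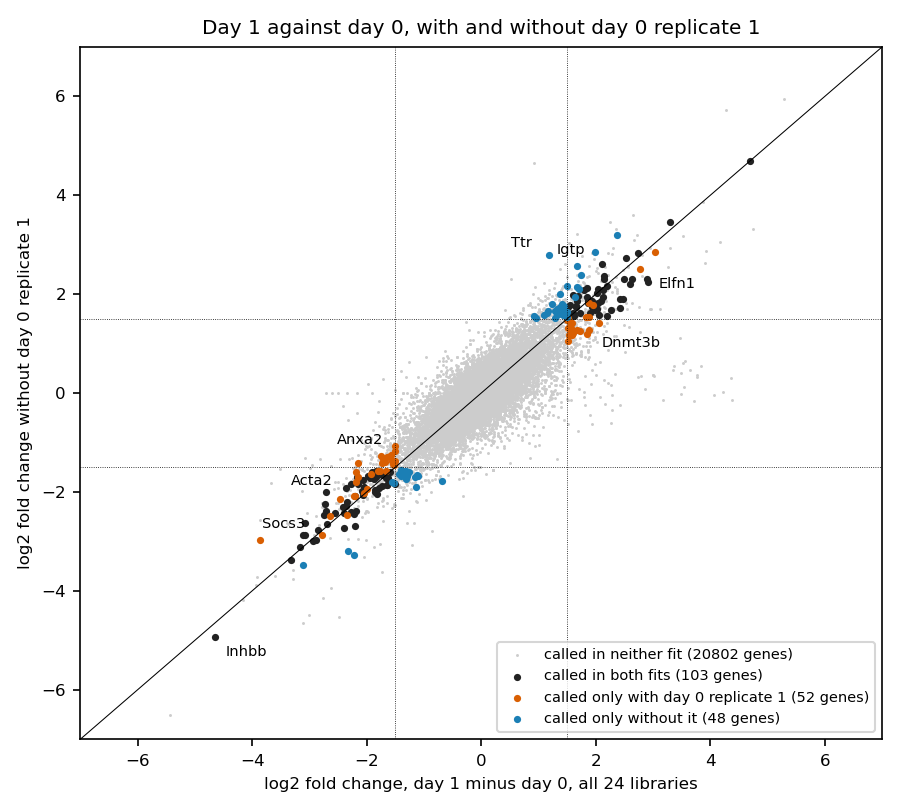
Log2-fold-change of each tested gene from day 0 to day 1 with all libraries (horizontal axis) and without day 0 replicate 1 (vertical axis). Dotted lines mark the fold threshold of 1.5 and the solid line equality. Dnmt3b and Anxa2 keep their sign and cross the threshold, Elfn1 goes from 2.92 to 2.25 and stays called, and Acta2, called in neither, moves from -3.51 to -1.53.

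Targets of LIF were among the largest falls. Socs3 (ENSMUSG00000053113, chromosome 11 from 117966079 to 117970047), the feedback inhibitor of the pathway, was at 3933, 2411 and 2107 normalized counts in day 0 replicates 1, 2 and 3 and at 448, 287 and 518 on day 1. The lowest day 0 value was far above the highest of day 1, and the change was -2.74 ± 0.25 (standard error) on the log2 scale (adjusted p = 4.6e-07, limma), or -2.47 without day 0 replicate 1. Bcl3 (ENSMUSG00000053175, chromosome 7 from 19808462 to 19822770), a nuclear cofactor of NF-kappaB, went from 1609, 1239 and 783 to 102, 167 and 141. Its change was -3.11 ± 0.33 (adjusted p = 3.35e-06, limma), and -2.87 without that library. Klf4 (ENSMUSG00000003032, chromosome 4 from 55527143 to 55532466), a naive pluripotency factor, was at 3934, 4826 and 3671 on day 0 and at 1020, 1599 and 1313 on day 1. All day 1 values were below all day 0 values, and the changes were -1.67 ± 0.21 with and -1.71 without replicate 1 (adjusted p = 1.68e-05 and 2.86e-05, limma).

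Gbx2, a homeobox factor downstream of Stat3, went from 1932, 1712 and 1194 to 457, 395 and 441 (-1.87 ± 0.29, adjusted p = 0.000188, limma). Its call was kept without day 0 replicate 1 (-1.73, adjusted p = 0.000712, limma) and missed the threshold by little without day 0 replicate 2 (adjusted p = 0.00109) or without day 1 replicate 1, 2 or 3 (0.00106, 0.00132 and 0.00126, limma). Of the 20 genes of the LIF and STAT3 list, 4 fell with all libraries (Socs3, Bcl3, Klf4 and Gbx2) and 0 rose, against 0.395% of all tested genes called lower. The medians were -0.66 and -0.55 without day 0 replicate 1, and 11 had every day 1 value below every day 0 value (10.4% of all tested genes). Without day 0 replicate 1, Junb, an AP-1 subunit, was called as well, at 997 in that library, 1629 and 1457 in the others and 505, 494 and 548 on day 1 (-1.58, adjusted p = 0.000149, limma). Icam1, an adhesion molecule whose promoter window is shown above, was at 3938, 4074 and 3490 and then at 1491, 1359 and 1472. Its change of -1.41 ± 0.19 (adjusted p = 3.7e-05, limma), or -1.39 without that library, stayed inside the fold threshold. The receptor chain Il6st was at 2257, 4663 and 4440 and at 4516, 4941 and 4403, so that only day 0 replicate 1 lay below the other libraries.

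Among 20 naive pluripotency genes, 3 fell in both fits (Klf4, Gbx2 and Mras), against 0.257% of all tested genes, and 0 rose, with medians of -0.56 and -0.70 without day 0 replicate 1. Mras, a small GTPase of the Ras family, was at 820, 964 and 985 and then at 106, 137 and 129 (-2.89 ± 0.26, adjusted p = 3.33e-07, limma, and -2.97 without that library). Nanog (ENSMUSG00000012396, chromosome 6 from 122707489 to 122714633) was at 16790, 13467 and 11108 on day 0 and at 4516, 6423 and 4762 on day 1. These groups did not overlap, and the change of -1.39 ± 0.20 (adjusted p = 7.17e-05, limma), or -1.24 without day 0 replicate 1, was inside the fold threshold, which it passed without day 0 replicate 3 (-1.54) or day 1 replicate 2 (-1.55). Zfp42, a marker of naive cells, overlapped between days, at 27036, 21804 and 19492 and at 13259, 21310 and 14505. Tfcp2l1, a LIF-responsive naive factor, was at 2504 in day 0 replicate 1 and at 6970 and 6447 in the others, against 2821, 3780 and 2938 on day 1. Its change was -0.61 with and -1.09 without that library, where its adjusted p of 0.000652 (limma) passed but its fold did not. Of 15 general pluripotency genes 0 were called in limma with or without that library, and the median was -0.04 in both fits.

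Fgf5 rose in both fits, as 1 of 20 formative genes. Fgf5 (ENSMUSG00000029337, chromosome 5 from 98254184 to 98277030), the signal by which the formative state is commonly recognized, was at 329, 609 and 478 on day 0 and at 2272, 1561 and 2118 on day 1. The days did not overlap, and the rise was 2.10 ± 0.21 with and 1.86 ± 0.20 without day 0 replicate 1 (adjusted p = 1.02e-06 and 1.7e-06, limma). Otx2 (ENSMUSG00000021848, chromosome 14 from 48657677 to 48673819), a homeobox factor of the formative state and of the anterior brain, went from 3303, 3927 and 3350 to 9442, 8739 and 9109. Its change of 1.37 ± 0.10 (1.33 without that library) had an adjusted p of 3.94e-08 (limma) and stayed inside the fold threshold. The POU factor Pou3f1 likewise was at 1991, 3699 and 2165 and then at 8099, 5985 and 6144 (1.41 ± 0.18, adjusted p = 3.35e-05, limma, and 1.24 without day 0 replicate 1). Without day 0 replicate 2 it passed (1.68).

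Dnmt3b (ENSMUSG00000027478, chromosome 2 from 153649450 to 153687730), a de novo DNA methyltransferase, shows the weight of 1 library. It was at 8255 in day 0 replicate 1, at 32820 and 26991 in replicates 2 and 3, and at 73927, 66927 and 75365 on day 1. All day 1 libraries were above all day 0 libraries. The change was 1.89 ± 0.29 (adjusted p = 0.000194) with and 1.27 ± 0.10 (adjusted p = 1.2e-07, limma) without replicate 1, so that the call ended through the fold threshold. Its call also ended without day 1 replicate 1 or 3 (adjusted p = 0.00142 and 0.00165, limma). Sall2, a zinc finger factor, was at 1128, 2833 and 2043 and then at 6327, 4872 and 6038, with changes of 1.61 and 1.25. Thus 3 of 20 formative genes rose with all libraries (Fgf5, Dnmt3b and Sall2) and 1 without that library (Fgf5), against 0.343% and 0.371% of all tested genes. The medians were 0.72 and 0.56, and 12 of the 20 had every day 1 value above every day 0 value (9.86% of all tested genes). Wnt8a, a Wnt ligand, was the 1 member with every day 1 value below every day 0 value, at 103, 104 and 161 and then at 65.7, 36.8 and 34.8, and was not called (-1.43 with and -1.54 without that library, adjusted p = 0.00188 and 0.00184, limma). Of 14 genes of DNA methylation, Dnmt3b rose in the first fit. In the second, the demethylation enzyme Tet2 fell, at 1622 in day 0 replicate 1, 2847 and 3576 in the others and 858, 1391 and 977 on day 1 (-1.60, adjusted p = 0.00011, limma).

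Of 16 genes of the FGF-ERK feedback list, the phosphatase gene Dusp4 alone rose with all libraries and none did without day 0 replicate 1 in limma (0.343% and 0.371% of all tested genes). Dusp4 was at 1139, 2685 and 2096 and then at 5572, 4804 and 5767, with changes of 1.53 and 1.18, and its call also ended without day 1 replicate 3 (1.48) and under quantile normalization (1.46). The list's medians were -0.26 and -0.41.

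The TGF-beta branch gave the largest fall of the named genes. Inhbb (ENSMUSG00000037035, chromosome 1 from 119415465 to 119422248), which encodes the beta B subunit of activin and inhibin, was at 638, 1220 and 1088 on day 0 and at 32.7, 60.5 and 24.9 on day 1. Its change was -4.65 ± 0.48 with and -4.93 ± 0.53 without day 0 replicate 1 (adjusted p = 1.67e-06 and 1.99e-06, limma). Lefty1, a secreted Nodal antagonist induced by Nodal itself, went from 7901, 6265 and 5911 to 1999, 2345 and 1399 (-1.83 ± 0.25, adjusted p = 5.38e-05, limma). Lefty1 kept the call without day 0 replicate 1 (-1.70, adjusted p = 0.000212, limma), and the medians of the 13 genes of the Nodal list were -0.84 and -0.64. Nodal itself was at 2256, 4535 and 3737 and then at 1592, 2262 and 1393. Replicates 1 of day 0 and 2 of day 1 overlapped there, and its changes of -0.98 and -1.27 were not called.

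**Figure D3:**
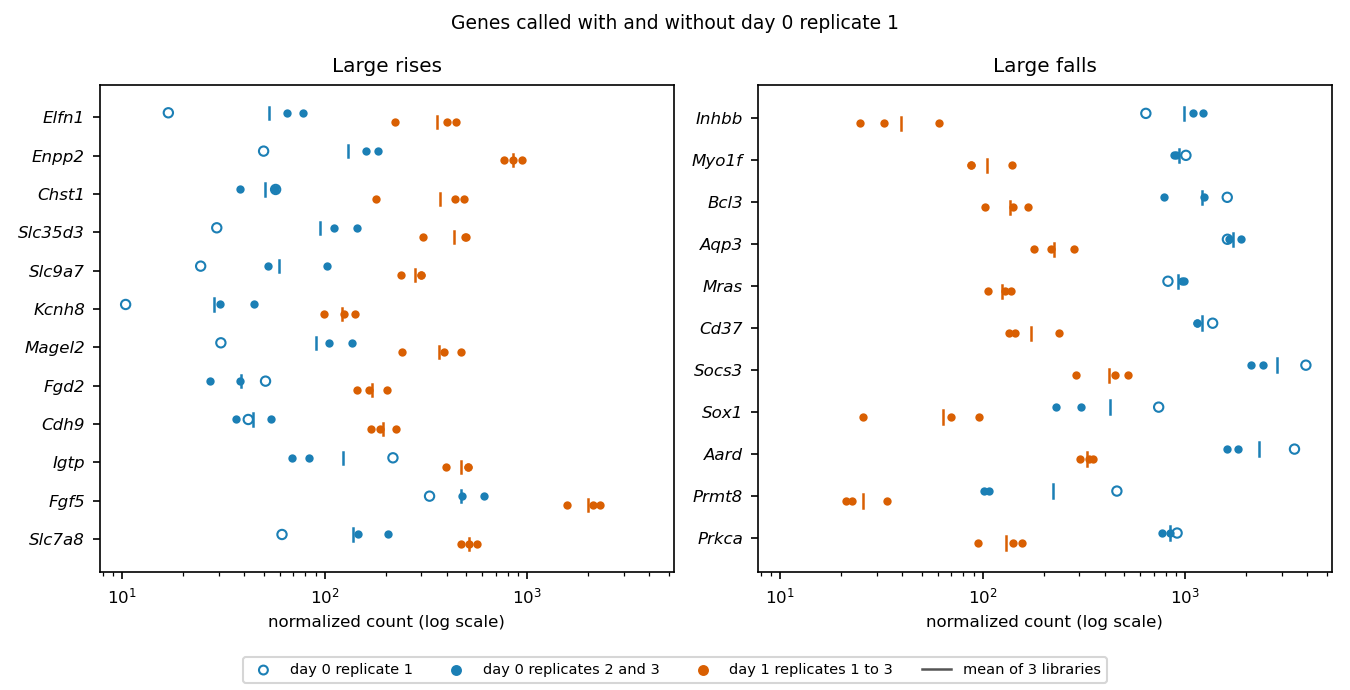
Normalized counts (horizontal, log scale) of 12 large rises (left) and 11 large falls (right) among genes called in both fits that had a mean of at least 100 on the higher day. Points are libraries, open circles day 0 replicate 1, and short bars the means of 3 libraries. The days do not overlap for any of these genes by the choice of them, and the open circle lies below both other day 0 libraries for 8 of the 12 rises.

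Among genes called in both fits with a mean of at least 100, Elfn1 and Enpp2 rose most in the fit of all libraries. Elfn1 (ENSMUSG00000048988, chromosome 5 from 139907943 to 139974722), a leucine-rich transmembrane protein of synapses, was at 16.9, 65.2 and 77.7 and then at 446, 223 and 402 (2.92 ± 0.36 with and 2.25 ± 0.23 without day 0 replicate 1). Enpp2 (ENSMUSG00000022425, chromosome 15 from 54838901 to 54952892), or autotaxin, the secreted enzyme that makes lysophosphatidic acid, was at 49.9, 183 and 159 and then at 936, 764 and 854 (2.89 ± 0.41 and 2.31 ± 0.36). In both genes day 0 replicate 1 held the lowest value and its absence made the rise smaller. Chst1, a keratan sulfate sulfotransferase, was at 57.2, 57 and 38.2 and then at 438, 179 and 489, and its rise of 2.73 was 2.83 without that library. Igtp (ENSMUSG00000078853, chromosome 11 from 58199556 to 58207591), an interferon-inducible GTPase, was the reverse of Elfn1. It was at 217 in day 0 replicate 1 and at 83.4 and 69.2 in the others, against 509, 397 and 512 on day 1, with rises of 2.11 and 2.61.

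Fgd2, an exchange factor for Cdc42, went from 51, 27 and 38.3 to 202, 144 and 165, and the type II cadherin Cdh9 from 41.9, 54.4 and 36.4 to 170, 224 and 187. The amino acid transporter Slc7a8 was at 61.5, 206 and 146 and then at 518, 470 and 565, and the sodium/proton exchanger Slc9a7 at 24.4, 52.7 and 102 and then at 299, 238 and 297. These 4 genes were called without any 1 of the 6 libraries. The potassium channel gene Kcnh8 rose by 2.26 and 1.68 in the fits with and without day 0 replicate 1, and missed the threshold without day 1 replicate 3 (adjusted p = 0.00162, limma). Slc35d3 rose by 2.42 and 1.73 and missed it without day 1 replicate 1 or 3 (adjusted p = 0.00197 and 0.00212, limma). Magel2, a paternally expressed imprinted gene, was at 30.7, 105 and 137 and then at 469, 241 and 388. Its rises of 2.19 and 1.55 also missed it without day 1 replicate 1 or 3 (adjusted p = 0.00383 and 0.00292, limma). It was the only called gene of 24 imprinted genes in either fit (0.343% and 0.371% of all tested genes were called higher), and their medians were -0.07 and 0.01.

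Aqp3, a channel for water and glycerol, was at 1612, 1881 and 1648 and then at 178, 281 and 216 (-2.94 with and -2.99 without day 0 replicate 1). Prkca, the alpha isoform of protein kinase C, was at 910, 842 and 763 and then at 95.1, 141 and 156 (-2.70 and -2.64). Myo1f, an unconventional myosin best known in leukocytes, was at 1006, 883 and 896 and then at 87.1, 139 and 87.8 (-3.17 and -3.11). For these 3 genes the day 0 libraries lay close together, replicate 1 included, and the call held without any 1 of the 6 libraries. Cd37, a tetraspanin, was equally tight at 1363, 1138 and 1140 and then at 145, 237 and 135 (-2.85 ± 0.46, and -2.77 without day 0 replicate 1). Its call nevertheless ended without day 0 replicate 2 or 3 or day 1 replicate 1 or 3, with adjusted p between 0.00112 and 0.00289 (limma). Aard and the arginine methyltransferase gene Prmt8 were highest in day 0 replicate 1. Aard was at 3455, 1824 and 1608 and then at 349, 302 and 333, and Prmt8 at 459, 101 and 107 and then at 22.6, 21.1 and 33.6. Their falls were -2.72 and -2.71 with that library and -2.38 and -2.0 without it.

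Sox1, an early neural factor, fell on the first day. It was at 738, 306 and 231 on day 0, highest in replicate 1, and at 95.8, 25.7 and 69.3 on day 1 (-2.73 ± 0.36 with and -2.24 ± 0.33 without that library, adjusted p = 4.05e-05 and 7.94e-05, limma). It was the only called gene of the 20 of the anterior neural and eye field list (0.395% of all tested genes were called lower), whose medians were -0.65 and -0.40. Pax6 was at 367, 156 and 195 and then at 74.2, 114 and 89.6, and its changes of -1.28 with and -0.93 without day 0 replicate 1 were not called (it reached -1.54 and was called without day 0 replicate 2). Rax, the gene that carries GFP in this line, was at 26.5, 39.2 and 16.9 and then at 9.07, 18.4 and 13, with overlapping days. The lists of junctions and p53 targets each held 1 called gene, which fell (0.395% of all tested genes), and both encode parts of desmosomes. Other desmosome genes of the junction list were not called in either fit: Dsg2 (-0.24), Dsc2 (0.09), Pkp2 (-0.27) and Jup (0.31). Dsp, desmoplakin, was at 784, 1317 and 1149 and then at 267, 452 and 316 (-1.65 and -1.87). Its call ended without day 0 replicate 2 (-1.49) or day 1 replicate 1 (-1.48). Perp, a p53 target in the membrane, went from 962, 826 and 709 to 226, 187 and 172 (-2.09 ± 0.15, adjusted p = 3.94e-08, limma, and -1.98 without day 0 replicate 1). The medians of the 26 junction genes were -0.04 and -0.11, and those of the 20 p53 targets -0.31 and -0.35.

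The calls in the list of SRF and YAP targets and cytoskeleton genes depended on day 0 replicate 1. SRF and YAP are factors that respond to actin tension and to spreading of cells. Of 33 tested genes of the list, which also holds filament, keratin, annexin and S100 genes, 4 fell with all libraries (Ccn1, Ccn2, Vim and Anxa2), against 0.395% of all tested genes, and 0 were called in either direction without that library by limma (0.719% of all tested genes), and the median moved from -0.63 to -0.20. Ccn2, a matricellular YAP target, was at 3925 in day 0 replicate 1, at 1531 and 1399 in the others and at 511, 839 and 514 on day 1. Anxa2, a membrane-binding annexin, was at 7040, 1598 and 1402 and then at 448, 700 and 570. In both genes the other day 0 libraries were still above all of day 1, and the changes of -1.75 and -2.15 became -1.28 and -1.41 without replicate 1. Ccn1 changed from -1.71 to -1.33 and the intermediate filament gene Vim from -1.51 to -1.38. Beyond that library, Ccn2 lost the call without day 1 replicate 1 or 3 (adjusted p = 0.00164 and 0.0018). Vim lost it without day 0 replicate 2 (-1.49) or day 1 replicate 3 (-1.48), and under quantile normalization (-1.39). Anxa2 lost it without day 1 replicate 1, 2 or 3 (adjusted p = 0.00709, 0.0018 and 0.00434, limma) and under quantile normalization (0.00103). Acta2, Tagln and Acta1 stood further out. Acta2, a smooth muscle actin, was at 5105 in day 0 replicate 1 against 92.4 and 74.6, and at 32.9, 12.9 and 51.1 on day 1. Tagln, an actin-binding protein, was at 4342 against 190 and 189, and Acta1, whose promoter window is shown above, at 903 against 40.6 and 41.4. None of the 3 was called in either fit in limma, with changes of -3.51, -2.96 and -2.81 that became -1.53, -1.46 and -1.34. Of 24 genes of the matrix and integrins, 0 were called in limma, and the medians were -0.52 and -0.51.

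Of the genes whose call depended on that library, most had it at 1 end of day 0. Among the 23 rises lost without it, it was below both other day 0 libraries for 19. Among the 29 falls lost, it was above both for 24. Over all tested genes it was below both for 42.3% and above both for 42.6%. The direction is fixed by the way these genes were found, and 16 of the 23 rises and 13 of the 29 falls were lost with a fold inside the threshold. Lost rises included Fads2, the delta-6 desaturase, at 1457, 4297 and 3502 and then at 9783, 8145 and 9843 (1.72 with and 1.25 without). The kinase gene Pim2 was at 3581, 5889 and 4405 and then at 15887, 10276 and 15185 (1.58 and 1.41, and not called without day 1 replicate 1 either, at 1.46, nor without day 1 replicate 3, with 1.50). Lost falls included Ndufa4l2, a hypoxia-induced mitochondrial protein gene, at 852, 298 and 219 and then at 78.8, 94.7 and 77.5. Its call ended without any of the libraries but day 0 replicate 3, with adjusted p from 0.00124 to 0.00513 (limma).

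The 29 rises gained without that library had day 0 replicate 1 above both others in 28 cases. Among them, Mgst1, a microsomal glutathione transferase, was at 104 in that library, at 27.8 and 27.1 in the others and at 124, 101 and 115 on day 1 (1.37 with and 2.0 without, adjusted p = 0.00494 and 1.87e-08, limma). The related Gstt1 was at 296, 78.9 and 80.4 and then at 276, 187 and 251, and the metallothionein gene Mt3 at 262, 87.3 and 103 and then at 409, 394 and 481. Bst2, an interferon-induced membrane protein gene, was at 3692 against 1217 and 1089, and at 3491, 3265 and 3184 on day 1. In Mgst1, Gstt1 and Bst2 day 0 replicate 1 thus sat at the level of day 1. The 19 falls gained had it below both others in every case, among them the RNase gene Zc3h12a at 229 against 708 and 700, and at 211, 269 and 193 on day 1. The transthyretin gene Ttr, a primitive endoderm marker, was at 100 in that library, at 2.53 and 2.67 in the others and at 20.5, 30.4 and 21.8 on day 1. Its change of 1.18 became 2.79 and was then called.

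No gene of the cholesterol, hypoxia and glycolysis lists was called by limma. Of 25 genes of cholesterol synthesis and uptake 23 had a positive change, 11 had every day 1 value above every day 0 value (9.86% of all tested genes), and 0 were called with or without day 0 replicate 1. The medians were 0.40 and 0.47. Sqle, squalene epoxidase, was at 7101, 6624 and 5741 and then at 9642, 9229 and 9599 (0.55 ± 0.09). Of 21 hypoxia genes 15 had every day 1 value below every day 0 value (10.4% of all tested genes) and 0 were called in limma in either fit, with medians of -0.92 and -0.60. The glucose transporter genes Slc2a3 and Slc2a1 were among these 15. Slc2a3 was at 57988, 47598 and 36881 and then at 20802, 27919 and 20453 (-1.03 with and -0.88 without replicate 1). Slc2a1 was at 58877 in that library and at 29157 and 21417 in the others, and at 17645, 17111 and 16144 on day 1 (-0.97 and -0.56). Of 19 glycolysis genes 0 were called in limma, with medians of -0.14 and -0.04. The summed level of the hypoxia list was 314636 in day 0 replicate 1, 192307 and 160462 in the others and 127483 to 146552 on day 1.

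Retinoic acid targets had the lowest median of the 32 lists, -1.29, which became -0.79 without day 0 replicate 1. Of 15 genes, Dhrs3, a retinaldehyde reductase, fell with all libraries and none did without that library in limma (0.395% and 0.348% of all tested genes). Dhrs3 was at 275, 122 and 95 and then at 29.6, 36.4 and 31.6 (-2.15 and -1.70), and its call ended without any of the libraries but day 0 replicate 3, with adjusted p from 0.00135 to 0.00455 (limma). Stra8, a germline gene induced by retinoic acid, was at 2543, 1492 and 1835 and then at 132, 156 and 94.4. The days were far apart and did not overlap. The change of -3.92 had a standard error of 0.81, which uses the spread of all 24 libraries, and an adjusted p of 0.00283 (limma). Stra8 was thus not called, nor was it without day 0 replicate 1 (-3.72, adjusted p = 0.00823, limma). It was called with a pseudocount of 5 (-3.88, adjusted p = 3.82e-06) and under array weights (-3.98, adjusted p = 0.000444, limma). Cyp26a1, the enzyme that clears retinoic acid, was at 998 in day 0 replicate 1 and at 122 and 127 in the others, against 44.2, 71.7 and 81.5 on day 1.

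The other lists gave few calls, where 0.343% of all tested genes were higher and 0.395% lower with all libraries. In fatty acid synthesis (15 genes), Fads2 rose and the lipogenic regulator gene Thrsp fell, at 76, 53.9 and 58.2 and then at 16, 15.9 and 7.49 (-2.23 with and -2.08 without day 0 replicate 1), and both calls ended without that library. Thrsp also lost it without day 1 replicate 3 (adjusted p = 0.00269, limma). The oxidative stress and metal list (16 genes) held a single rise, of Osgin1 at 4.49, 11.9 and 9.07 and then at 31, 37.6 and 28.1, which was lost without any 1 library but day 0 replicate 2 (adjusted p from 0.00183 to 0.00518, limma). Among 20 immediate-early genes, Ier5 rose and Ccn1 fell with all libraries, and only Junb fell without replicate 1, with medians of -0.67 and -0.72. Ier5 was at 296, 500 and 383 and then at 1255, 934 and 1115. Its change of 1.51 was 1.32 without day 0 replicate 1, 1.41 without day 1 replicate 1, 1.49 without day 1 replicate 3 and 1.48 under quantile normalization, all inside the fold threshold. Of 15 fibroblast markers, the surface protein gene Thy1 rose and the collagen gene Col1a2 fell in both fits. Thy1 was at 139, 278 and 255 and then at 738, 1082 and 773 (1.99 and 1.67), and Col1a2 at 506, 335 and 225 and then at 130, 46.5 and 102 (-1.97 and -1.68).

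No member was called by limma in either fit in 15 of the 32 lists, general pluripotency, cholesterol synthesis, hypoxia, glycolysis and the matrix among them. The others were the lists of Wnt response (median 0.21 with and -0.01 without day 0 replicate 1), BMP response (-0.29 and -0.50), Notch response (0.15 and 0.10), ATF4 response (0.00 and -0.07), heat shock and unfolded proteins (0.03 and -0.07), the cell cycle (0.06 and 0.03), germline genes (-0.19 and -0.03), 2-cell-like genes (-0.85 and -0.37), mesendoderm (-0.44 and -0.41) and trophoblast markers (-0.11 and -0.40). For primitive endoderm the medians were -0.37 and -0.20, and for oxidative stress and fatty acid synthesis they were 0.29 and 0.48, and 0.39 and 0.23. For fibroblast markers they were -0.70 and -0.60, and for DNA methylation 0.06 and -0.15. The 2-cell-like list holds near-identical copies whose reads cannot be assigned with certainty. Its sum was 24726 in day 0 replicate 1, 9109 and 10157 in the others, and 5348, 21438 and 3510 on day 1, so that single libraries of both days were high. The lists together held 26 of the 155 called genes, 9 higher and 17 lower.

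**Figure D4:**
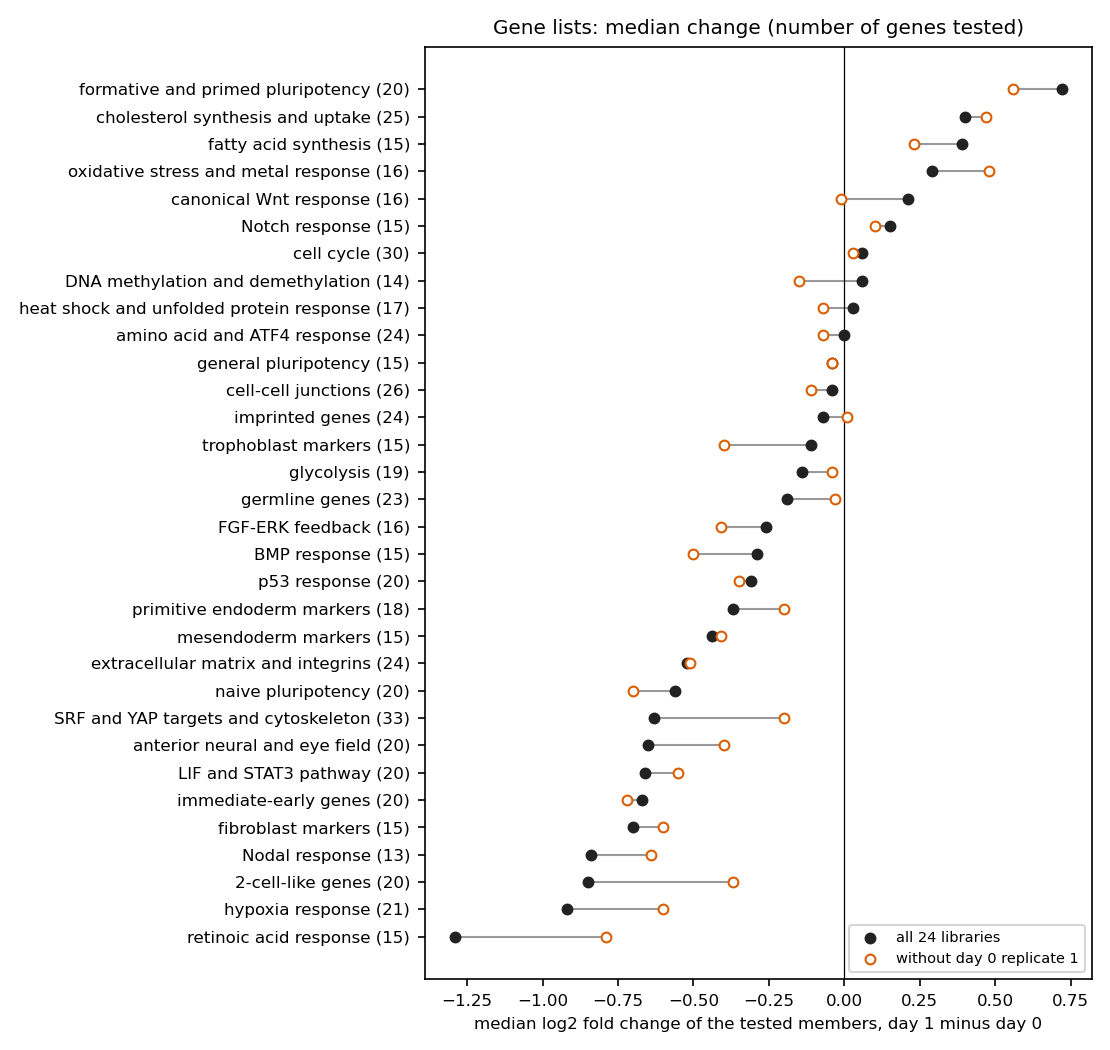
Median log2-fold-change from day 0 to day 1 (horizontal axis) of the tested members of each of the 32 gene lists, with their number in brackets. Filled points use all libraries and open points leave out day 0 replicate 1. The formative list has the highest median, 0.72, and the retinoic acid list the lowest, -1.29, and the largest shifts between points are in the lists of retinoic acid response, 2-cell-like genes and SRF and YAP targets with cytoskeleton genes.

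The genes called in both fits were then read on days 2 and 3 against day 1, as a description, since days 0 and 1 chose them. Of the 49 that rose, 34 had every day 2 value above every day 1 value and 3 had every one below. Of the 54 that fell, 27 had every day 2 value below every day 1 value and 13 had every one above. Over all tested genes, 22% were above and 23.5% below in this way. On day 3, 32 of the 49 were above all of day 1 and 4 below, and 22 of the 54 were below and 19 above, against 24.9% above and 28.1% below over all tested genes. Fgf5 reached 4956, 4592 and 4653 on day 2 and 5326, 5309 and 5166 on day 3. Klf4 went down to 505, 518 and 385 and then to 402, 418 and 334, and Bcl3 lay between 57.5 and 64.6 on day 2 and between 51.6 and 59.5 on day 3. Inhbb was at 13.9 or less on both days. Igtp stayed at 490, 494 and 494 on day 2 and 405, 428 and 418 on day 3, close to day 1. Dnmt3b lay between 119697 and 141442 on days 2 and 3, above all of day 1. Nanog was lowest on day 2, at 1583, 1839 and 1757, and was at 2432, 3013 and 2952 on day 3.

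**Figure D5:**
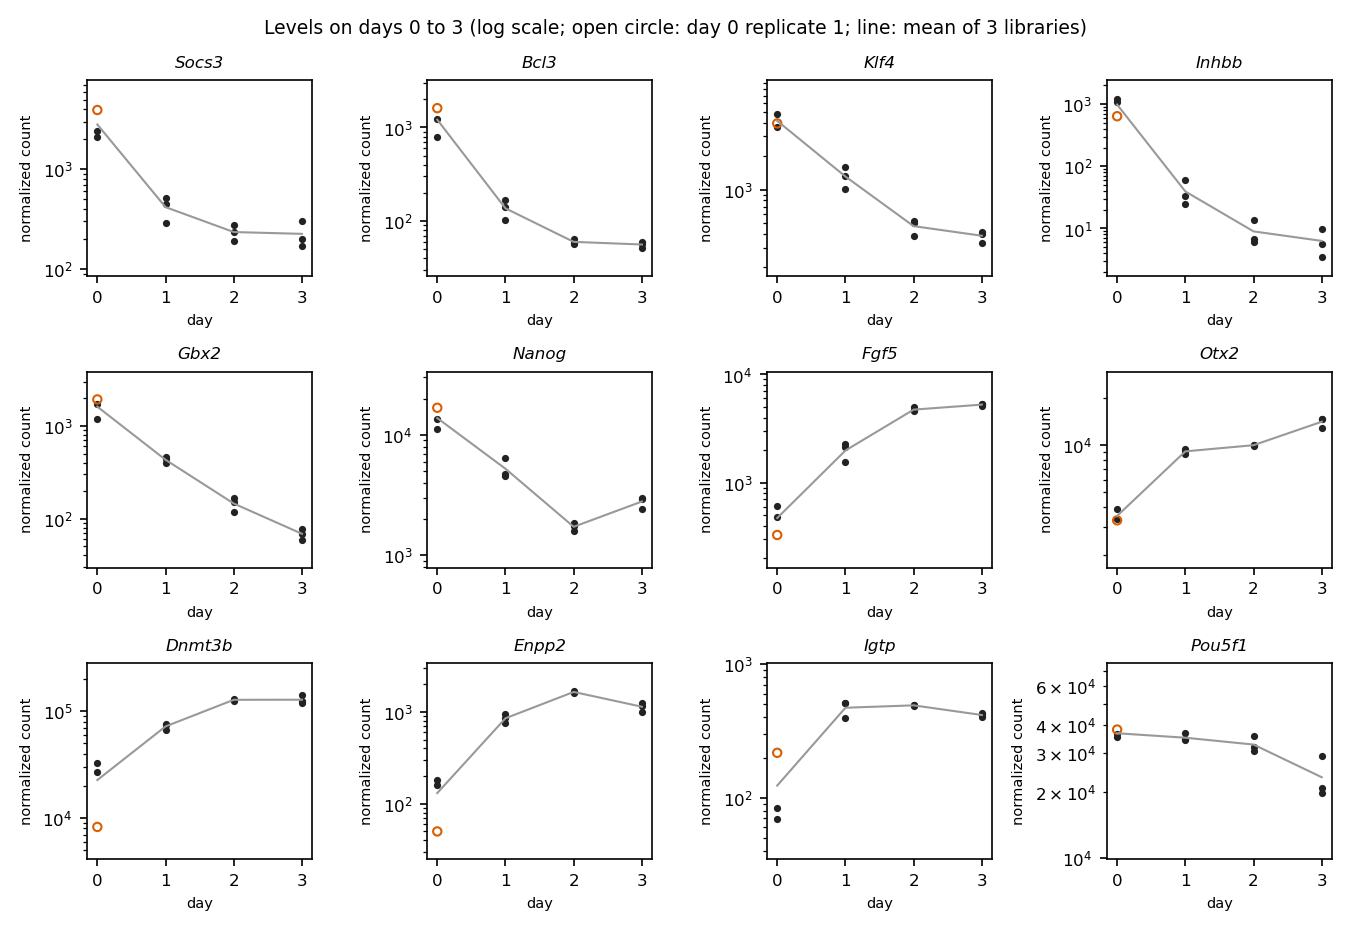
Normalized counts (vertical, log scale) on days 0 to 3 of 12 genes, 3 libraries per day, with a line through the means and an open circle for day 0 replicate 1. Socs3, Bcl3, Klf4 and Inhbb go down from day 0 to day 3, Fgf5, Otx2 and Dnmt3b go up, and Pou5f1 is level over days 0 and 1 and lower on day 3.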

How the data were processed

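RNA was sequenced from live cells, and the 3 day 0 and 3 day 1 libraries of 24 are compared here. Per the labels, the authors pseudo-aligned reads with kallisto 0.43.1 (build mm10) and deposited 1 table of a normalized signal, estimated counts divided by DESeq2 size factors. These are not whole counts, so sequencing depth is unknown, library totals are sums of normalized values, and no count model was used. Strandedness was not given in the sources used here, so values of antisense genes and near-identical copies are uncertain. Further columns of the table hold the authors' calls of changed, eye-field and stable genes, which were not used.

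Values were fitted as log2(value + 1) with limma 3.58.1 in R 4.3.3 (lmFit, eBayes with trend, no covariate), with all 24 libraries and 16 residual degrees of freedom, with calls at an adjusted p under 0.001 and a log2-fold-change beyond 1.5. Fold changes understate changes of low genes. Lists are described by counts and medians and were not tested.

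Named are the 12 largest rises and falls called in both fits, without overlap and with a mean of at least 100, the called members of each list and up to 4 other members by mean, genes that lost or gained the call, genes where day 0 replicate 1 departed most, and Pou5f1, Sox2, Nanog, Fgf5, Otx2 and Rax. Not all of these are described, and some items are not reported here. Pou3f1, Icam1, Nodal, Cyp26a1, Gata6, Sqle, Tagln, Acta1, Wnt8a, Cish and Ifitm3 were named after their values were seen. Members and lists were chosen with earlier results of these data known. Alternatives were other pseudocounts, filters, scalings, weights, thresholds and library sets, and a replicate block. Lengths and positions come from GENCODE M21 and the table. Python 3.11.15, pandas 2.3.3, scipy 1.17.1 and matplotlib 3.10.9 were used.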

Additional observations from a re-analysis of the deposited data

How the results depend on the processing

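Counts of genes higher and lower on day 1 (72 and 83) stayed within 1.5 times with 0.5 or 5 as the pseudocount, without a filter, with a filter of 50, under quantile and TMM scaling, no trend, and protein-coding genes alone (chosen after seeing the data). Array weights raised them to 154 and 126, and an adjusted p under 0.05 to 205 and 221. The array weights of day 0 replicates 1, 2 and 3 were 0.0513, 0.387 and 2.63, so that day 0 rested mainly on replicate 3. Under these weights 59 of the 72 and 63 of the 83 calls were kept. Fits of the 6 libraries alone gave 1 and 0, or 6 and 19 at an adjusted p under 0.05 (chosen after seeing the data), with 2501 genes at an unadjusted p under 0.05. A limma treat test against a log2-fold-change of 1.5 gave 0 and 0, with 114 genes at an unadjusted p under 0.05. Leaving out each library in turn gave 46 to 95 higher and 49 to 86 lower. The lowest higher count, 46, came without day 1 replicate 1 (59 lower), and the lowest lower count, 49, without day 1 replicate 3 (48 higher). The gene sets overlapped in part, and the cause of these shifts was not tested beyond fewer libraries in those fits.

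The replicate number as a block gave 69 and 73, of which 65 and 70 were shared with the 72 and 83. Among the genes followed over the settings, which are not all of those described, it ended the calls of Anxa2 (adjusted p = 0.00117, limma) and Osgin1 (0.00116). Mt3 gained a call (0.000645). Same-numbered day 0 and day 1 libraries deviated from their group means with correlations of 0.0537, -0.0326 and -0.0157. Differently numbered ones lay between -0.0707 and 0.0763. With so few libraries per day, this cannot tell whether the numbers pair the libraries. List medians that turned sign without day 0 replicate 1 were those of Wnt response (0.21 to -0.01), heat shock (0.03 to -0.07), DNA methylation (0.06 to -0.15) and imprinted genes (-0.07 to 0.01). Array weights added 10 calls among the genes followed over the settings, with Tagln (-1.63) and Pou3f1 (1.53) among them. They ended 9, all inside the fold threshold. These were Dnmt3b (1.44), Sall2 (1.49), Dusp4 (1.37), Fads2 (1.43), Ccn1 (-1.21), Ccn2 (-1.38), Vim (-1.28), Anxa2 (-1.42) and Col1a2 (-1.29). Of all genes followed over the settings, Sox2 turned sign under array weights (0.06) and without day 0 replicate 2 (0.01), from -0.09, and was -0.22 without day 0 replicate 3. Gkn2, where day 0 replicate 1 was at 700 against 7.62 and 13.4, turned from -1.71 to 0.29 without that library (-2.89 without day 0 replicate 2) and to 0.31 under array weights. Neither was called in those fits. Whole reads could not be recovered, so genes at few normalized counts have an unknown counting error.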

Other observations

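Some of the largest fitted rises were at low levels. Mr1, a presenting molecule related to MHC class I, was at 4.03, 1.43 and 4.27 normalized counts on day 0 and at 49.2, 26.4 and 43.7 on day 1, without overlap. Its rise was 3.30 on the log2 scale, and it was named after its values were seen. Across protein-coding genes, Spearman's rho of the log2-fold-change with transcript length was 0.153 with all libraries and -0.198 without day 0 replicate 1, so that its sign depended on that library.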
